A study of Homo sapiens with 9 samples.

Results

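The cluster of miR-424, miR-503, miR-542 and the miR-450 relatives is a group of miRNA hairpins on the long arm of the human X chromosome, next to the long non-coding RNA gene MIR503HG. Its members were taken by name from the deposited count table: hsa-mir-424, hsa-mir-503, hsa-mir-542, hsa-mir-450a-2, hsa-mir-450a-1 and hsa-mir-450b. All 6 were present among 1485 hairpins, and all 6 passed the filter on low counts in the HEK293E comparisons. Small RNAs were sequenced from HEK293E, which derives from human embryonic kidney cells (HEK293), and from K562, a leukaemia line with erythroid features. Cells received siRNAs against ERH (siERH-3 or siERH-5) or control siRNAs (siGFP or siControl), and no library came from untransfected cells. HEK293E cells were transfected 2 times by lipofection and harvested on day 5. They gave 2 libraries each for siGFP, siControl and siERH-3 (replicates 1 and 2) and 1 library for siERH-5 (replicate 2). K562 cells were electroporated once and harvested after 4 days, with 1 library each for siGFP and siERH-5.

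A miRNA hairpin is cut from its primary transcript in the nucleus by the Microprocessor, a complex of the nuclease DROSHA and its partner DGCR8, and then by DICER in the cytoplasm. Hairpins of 1 cluster can share a primary transcript and still differ in mature miRNA, because each is cut and its product loaded and turned over separately. ERH is a small nuclear protein that binds DGCR8 and is known to help Microprocessor cut hairpins that it cuts poorly on their own. The first pair of the cluster, miR-424 and miR-503, belongs to the extended miR-15/16 family, whose members repress cyclins and other cell cycle genes, and miR-424 is known for a role in monocyte and macrophage differentiation. ERH mRNA was not measured in small RNA libraries, so the knockdown itself was not checked here.

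In GENCODE 29 (GRCh38) the hairpins lie on the minus strand of chromosome X within 6527 nt, in the order hsa-mir-424, hsa-mir-503, hsa-mir-542, hsa-mir-450a-2, hsa-mir-450a-1 and hsa-mir-450b along the transcript. MIR424 (134546614 to 134546711) overlaps an exon of MIR503HG by 19 nt. MIR503 (134546328 to 134546398), 215 nt downstream, lies in an intron of MIR503HG, which spans 134543337 to 134546632. A gap of 4890 nt follows. MIR542 (134541341 to 134541437) starts the second group, beyond the annotated end of MIR503HG. MIR450A2 (134540508 to 134540607), MIR450A1 (134540341 to 134540431) and MIR450B (134540185 to 134540262) complete it at spacings of 733, 76 and 78 nt. The last 4 hairpins overlap no other annotated transcript on their strand.

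The mature 5p sequences below show which members share a seed, the bases 2 to 8 that pair with targets, here in capitals. They were read from RefSeq miRNA entries (GRCh38.p14).
hsa-miR-424-5p: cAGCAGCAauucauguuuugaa
hsa-miR-503-5p: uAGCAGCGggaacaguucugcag
hsa-miR-542-5p: uCGGGGAUcaucaugucacgaga
hsa-miR-450a-5p: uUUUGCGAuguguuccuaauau
hsa-miR-450b-5p: uUUUGCAAuauguuccugaaua

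The 5 sequences carry 5 different seeds. That of hsa-miR-424-5p is found in 7 mature miRNAs of the table, the others being hsa-miR-15a-5p, hsa-miR-15b-5p, hsa-miR-16-5p, hsa-miR-195-5p, hsa-miR-497-5p and hsa-miR-6838-5p. Its neighbour hsa-miR-503-5p shares the first bases of that seed and ends it with another base. The last 2 are near relatives, and hsa-miR-450b-5p differs from hsa-miR-450a-5p at 6 of 22 positions (G7A, G10A, A18G, U20A, A21U and U22A, counted from the 5′ end), of which G7A lies in the seed. Both 450a hairpins yield the same 5p sequence, and their 3p sequences differ at 3 of 22 positions (A7G, G19U and U20C, from 450a-1 to 450a-2), as these lines show.
hsa-miR-450a-1-3p: aUUGGGAAcauuuugcauguau
hsa-miR-450a-2-3p: aUUGGGGAcauuuugcauucau

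Of the second group, hsa-mir-450a-1 and hsa-mir-450b are shown because they have an unusual base composition. The RefSeq entries read here held no hairpin sequence of hsa-mir-450a-2. Capitals mark the mature sequences within the hairpins.
hsa-mir-450a-1: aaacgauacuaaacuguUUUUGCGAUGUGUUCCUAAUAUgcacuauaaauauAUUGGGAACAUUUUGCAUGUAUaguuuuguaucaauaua
hsa-mir-450b: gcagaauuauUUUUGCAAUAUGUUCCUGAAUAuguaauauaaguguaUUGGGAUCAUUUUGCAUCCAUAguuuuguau

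The GC content of hsa-mir-450a-1 was 27.5% and that of hsa-mir-450b 28.2%, against a median of 53.0% over the 606 tested hairpins with a RefSeq sequence. Only 0.66% and 0.825% of those hairpins had less GC. The predicted folding energy was -34.7 kcal/mol for hsa-mir-450a-1 and -22.8 kcal/mol for hsa-mir-450b, and 2.97% of hairpins were predicted to be less stable per nucleotide than hsa-mir-450b. The first pair folded more stably, at -41.8 kcal/mol for hsa-mir-424 and -42.2 kcal/mol for hsa-mir-503, with 51.0% and 59.2% GC. hsa-mir-542 had 47.4% GC and -34.9 kcal/mol.

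The libraries held 2609929 to 3320017 hairpin counts each. The 6 hairpins together made up 0.423% to 0.598% of the counts of a HEK293E library and 0.0963% and 0.111% in K562. Each count is a fragment of mature miRNA size, so hairpin length does not enter, and counts do not separate the 5p from the 3p product. Levels are given as CPM, counts scaled to 1e+06 per library after TMM scaling, which sets libraries on the level of their shared hairpins. HEK293E levels use a scale over the 7 HEK293E libraries, and comparisons with K562 use a scale over all 9. The amount of miRNA per cell was not measured, so each level is relative to the other hairpins. The labels do not say that replicates were separate cultures, so p-values measure the spread between these libraries, which may be technical.

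hsa-mir-424 was the most abundant member in all 9 libraries, hsa-mir-503 came next in all 9, and hsa-mir-450b was the least abundant. In the 4 HEK293E control libraries, hsa-mir-424 had a mean of 2041 ± 921 CPM (SD, n = 4), hsa-mir-503 had 1239 ± 313 CPM, hsa-mir-450a-1 had 699 ± 38.3 CPM and hsa-mir-450a-2 had 698 ± 40.2 CPM. hsa-mir-542 followed at 636 ± 69.2 CPM and hsa-mir-450b at 201 ± 100 CPM. The ranges of hsa-mir-424 and hsa-mir-503 overlapped, as did those of the 450a copies and hsa-mir-542, whereas hsa-mir-503 stayed above the 450a copies and hsa-mir-542 stayed above hsa-mir-450b in range.

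The first pair and the second group took different shares of the cluster. Of the summed counts of the 6 hairpins in the HEK293E controls, hsa-mir-424 made up 35.6 ± 7.4% (SD, n = 4), hsa-mir-503 22.6 ± 1.7%, hsa-mir-542 11.9 ± 2.1%, each 450a copy 13.2 ± 2.9% and hsa-mir-450b 3.49 ± 0.92%. The share of hsa-mir-424 in single libraries was 28.1% (95% Wilson interval 27.4% to 28.8%) and 41.0% (40.2% to 41.8%) in siGFP replicates 1 and 2, and 30.3% (29.6% to 31.1%) and 42.8% (42.1% to 43.6%) in siControl. These intervals cover counting error only, and the replicates lie far outside each other's. With siERH the share was 36.9% (36.1% to 37.8%) in siERH-3 replicate 1, 44.9% (44.1% to 45.6%) in siERH-3 replicate 2 and 43.8% (43.1% to 44.5%) in siERH-5. Each share was above both controls of the same replicate, but the siERH-5 interval overlaps that of siControl replicate 2. Shares within the cluster are not independent, and a lower share of the 450a copies raises the others.

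**Figure D1:**
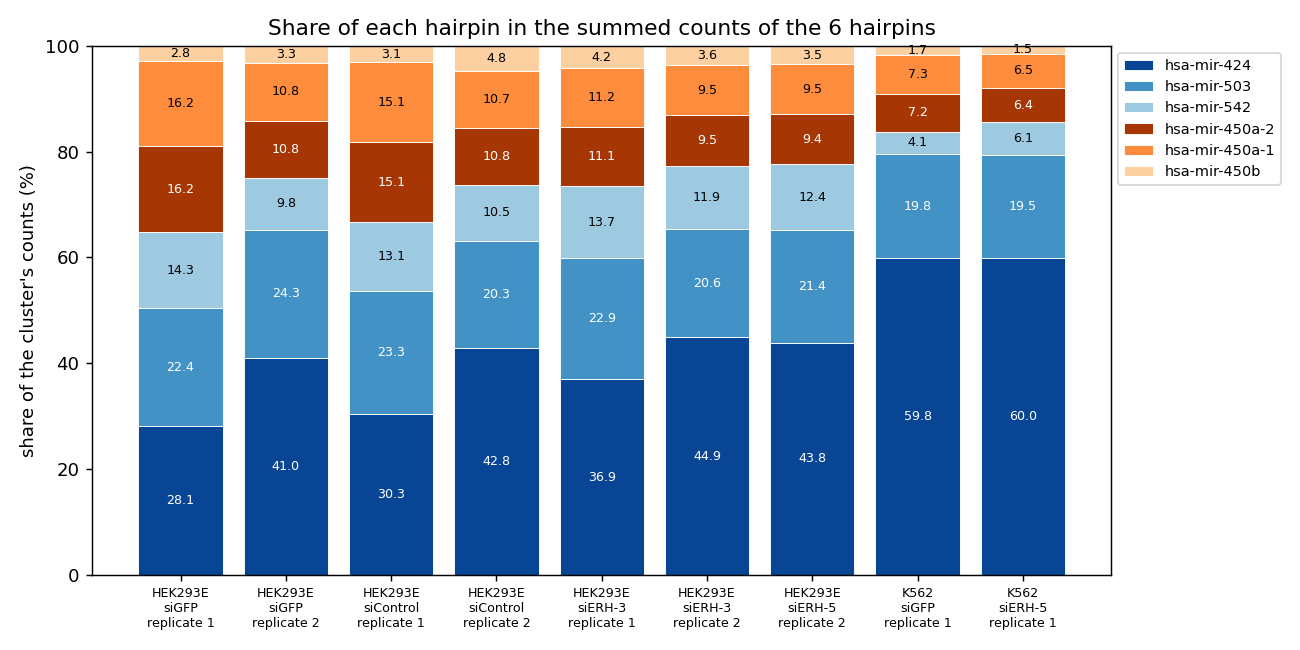
Share of each hairpin in the summed raw counts of the 6 hairpins (y axis, percent) in each of the 9 libraries (x axis). hsa-mir-424 took 28.1% to 44.9% in HEK293E and 59.8% and 60.0% in K562, and each 450a copy took less in K562 than in any HEK293E library.

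The 450a copies held nearly equal counts. hsa-mir-450a-2 had 0.983 to 1.01 times the counts of hsa-mir-450a-1 in every library, and how reads that match both were counted is not given in the sources used here. They are therefore not treated as independent measurements. Counted once, as the larger copy, 450a made up 15.3% of the cluster's counts in the HEK293E controls, hsa-mir-503 26.0% and hsa-mir-424 40.8% on average. This holds if reads matching both copies were counted in full for each. If they were split, the counts of 450a are those of both copies together, at 13.2% each against 22.6% for hsa-mir-503. The rank of 450a against hsa-mir-503 therefore depends on the counting.

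The main comparison asked whether any member changed when ERH was targeted in HEK293E. Of the 6 hairpins, hsa-mir-450a-1 and hsa-mir-450a-2 were lower in the 3 siERH libraries than in the 4 control libraries, 0 were higher, and hsa-mir-424, hsa-mir-503, hsa-mir-542 and hsa-mir-450b did not pass the threshold (edgeR quasi-likelihood test, Benjamini-Hochberg adjusted p under 0.05 over 773 hairpins). Over all tested hairpins, 16.2% were lower and 23.8% higher. As hsa-mir-450a-1 and hsa-mir-450a-2 are not independent, they are read as a single lower call. A single call among the members does not set the cluster apart from all tested hairpins. The median log2 fold change was -0.24 over the 6 members, which includes both copies, and -0.01 over all 773. With the copies counted once, the middle value of the members was that of hsa-mir-450b, at -0.19.

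The 450a hairpins, whose mature miRNA has a seed of its own in the table, gave the clearest separation. hsa-mir-450a-2 had 654 and 701 CPM in siGFP replicates 1 and 2, and 687 and 751 CPM in siControl. With siERH it had 431 CPM in siERH-3 replicate 1, 474 CPM in siERH-3 replicate 2 and 501 CPM in siERH-5. All 3 siERH libraries lay below all 4 controls, as they did for 19.1% of all tested hairpins. Control libraries averaged 698 ± 40.2 CPM (SD, n = 4) and siERH libraries 469 ± 35.2 CPM (SD, n = 3), and the fitted log2 fold change was -0.58 with an SE of 0.15 (adjusted p = 0.0135 by edgeR). hsa-mir-450a-1 gave -0.57 with an SE of 0.15 (adjusted p = 0.0135 by edgeR).

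Set against controls of the same replicate only, hsa-mir-450a-2 was lower by a log2 ratio of -0.64 in siERH-3 replicate 1, -0.61 in siERH-3 replicate 2 and -0.54 in siERH-5. Both siRNAs against ERH thus gave values on the same side of the controls. The call depended on the scaling and on the number of libraries. With library totals in place of TMM, which moved the median of all hairpins from -0.01 to 0.19, the log2 fold change of hsa-mir-450a-2 was -0.39 (adjusted p = 0.0776 by edgeR) and that of hsa-mir-450a-1 -0.38 (adjusted p = 0.0793 by edgeR). On that scale the siERH libraries were still all below the controls, at 471 to 544 against 638 to 706 counts of hsa-mir-450a-2 per 1e+06, which was so for 11.4% of all tested hairpins. The call for hsa-mir-450a-2 also ended without siERH-3 replicate 1 (-0.49, adjusted p = 0.0811 by edgeR), without siERH-3 replicate 2 (-0.58, adjusted p = 0.0582 by edgeR), within replicate 2 alone (-0.53, adjusted p = 0.065 by edgeR) and with siGFP as the only control (-0.55, adjusted p = 0.0572 by edgeR).

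**Figure D2:**
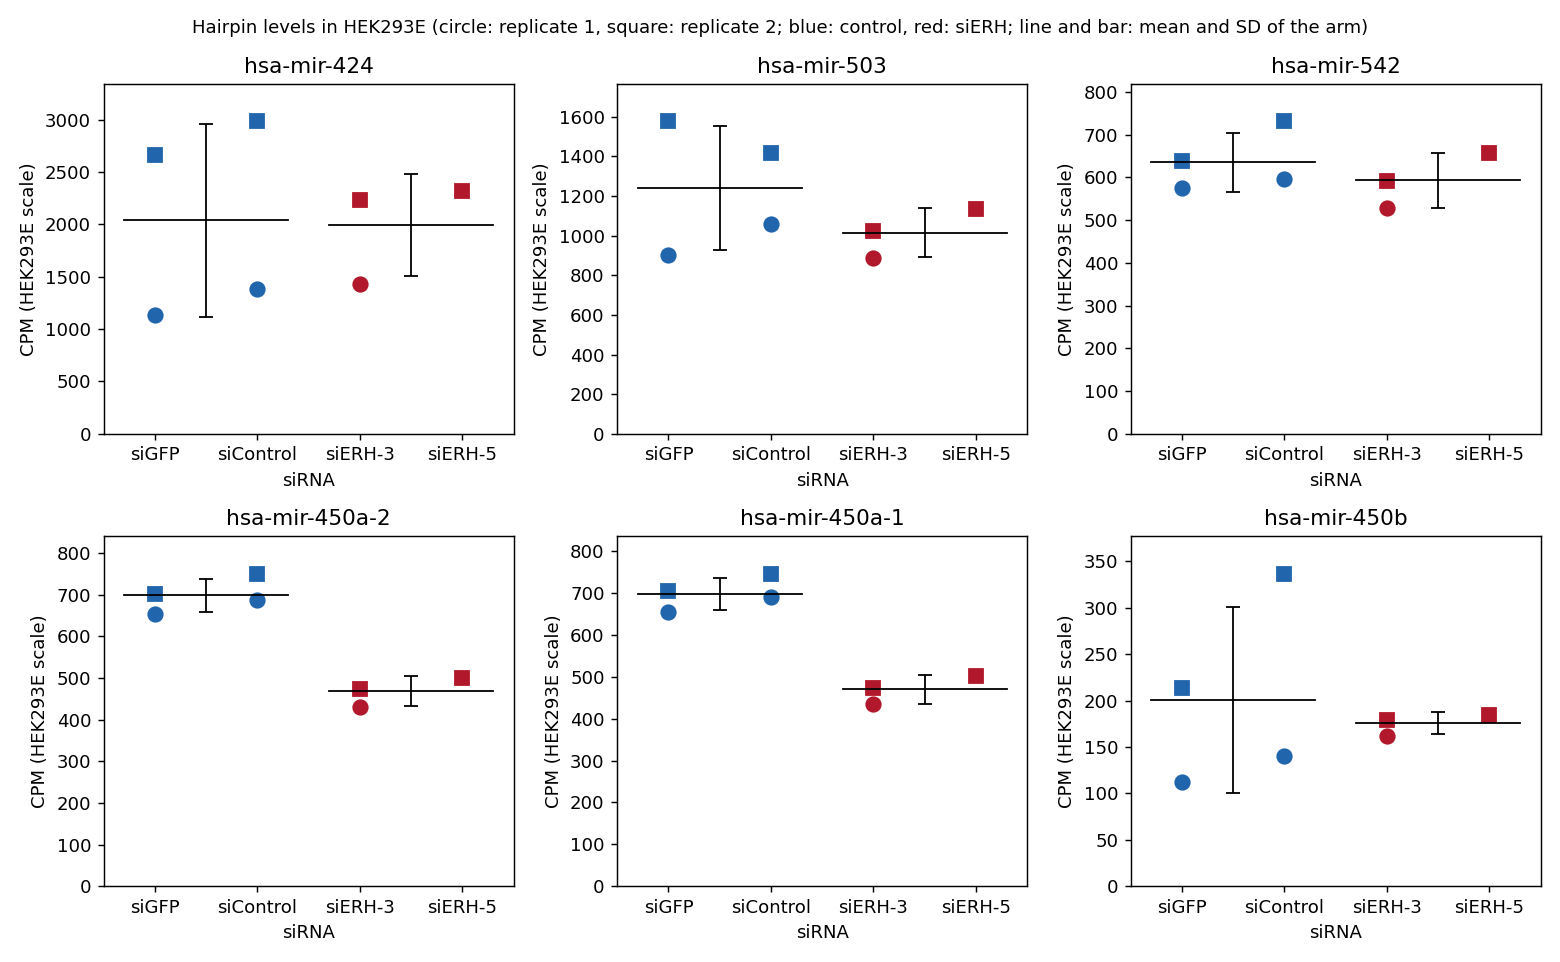
Level of each hairpin in the 7 HEK293E libraries (y axis, CPM on the HEK293E scale from 0; x axis, siRNA); circles are replicate 1, squares replicate 2, blue is control, red is siERH, and the line and bar are the mean and SD of each arm. The red points of both 450a copies all lie below the blue ones, and in all 6 panels the replicate 2 controls lie above the replicate 1 controls.

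hsa-mir-424 and hsa-mir-503, the members with a miR-15/16 type seed, differed between replicates. hsa-mir-424 had 1132 and 1382 CPM in the replicate 1 controls siGFP and siControl, and 2664 and 2987 CPM in the replicate 2 controls. With siERH it had 1430 CPM in siERH-3 replicate 1, 2232 CPM in siERH-3 replicate 2 and 2322 CPM in siERH-5. The arms overlapped, and replicate 2 was higher than replicate 1 by a log2 ratio of 1.23 with siGFP, 1.11 with siControl and 0.64 with siERH-3, while over all hairpins and siRNAs the median was -0.02 and 31.7% of such differences were over 0.5 in size. The log2 fold change of hsa-mir-424 with siERH was -0.03 with an SE of 0.33 (adjusted p = 0.944 by edgeR).

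hsa-mir-503 had 901 and 1059 CPM in the replicate 1 controls, 1578 and 1418 CPM in the replicate 2 controls, and 886, 1023 and 1136 CPM in siERH-3 replicate 1, siERH-3 replicate 2 and siERH-5. With TMM, each siERH library was below both controls of its own replicate, by log2 ratios of -0.15, -0.55 and -0.40, but the arms overlapped across replicates. On library totals these ratios were -0.03, -0.29 and -0.10, and siERH-5 was below only 1 of its 2 controls. The share of all tested hairpins with this within-replicate pattern was not counted. Replicate 2 was higher than replicate 1 by 0.81 with siGFP, 0.42 with siControl and 0.21 with siERH-3 on the log2 scale. The log2 fold change was -0.29 with an SE of 0.21 (adjusted p = 0.309 by edgeR). With the replicate number as a block it was -0.34 (adjusted p = 0.0593 by edgeR), and on library totals it was -0.08 (adjusted p = 0.781 by edgeR).

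hsa-mir-542 opens the second group and had 576 and 597 CPM in the replicate 1 controls, 639 and 732 CPM in the replicate 2 controls, and 529, 592 and 658 CPM in the siERH libraries. The arms overlapped. The log2 fold change was -0.10 with an SE of 0.17 (adjusted p = 0.66 by edgeR). hsa-mir-450b, the near relative of 450a, had 112 and 140 CPM in the replicate 1 controls, 213 and 337 CPM in the replicate 2 controls, and 162, 180 and 185 CPM in the siERH libraries. Its siERH values lay inside the range of the controls. Within replicates, its log2 ratio to control was 0.36 in replicate 1 and -0.61 and -0.57 for siERH-3 and siERH-5 in replicate 2, so the direction differed between replicates. The log2 fold change was -0.19 with an SE of 0.33 (adjusted p = 0.672 by edgeR).

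**Figure D3:**
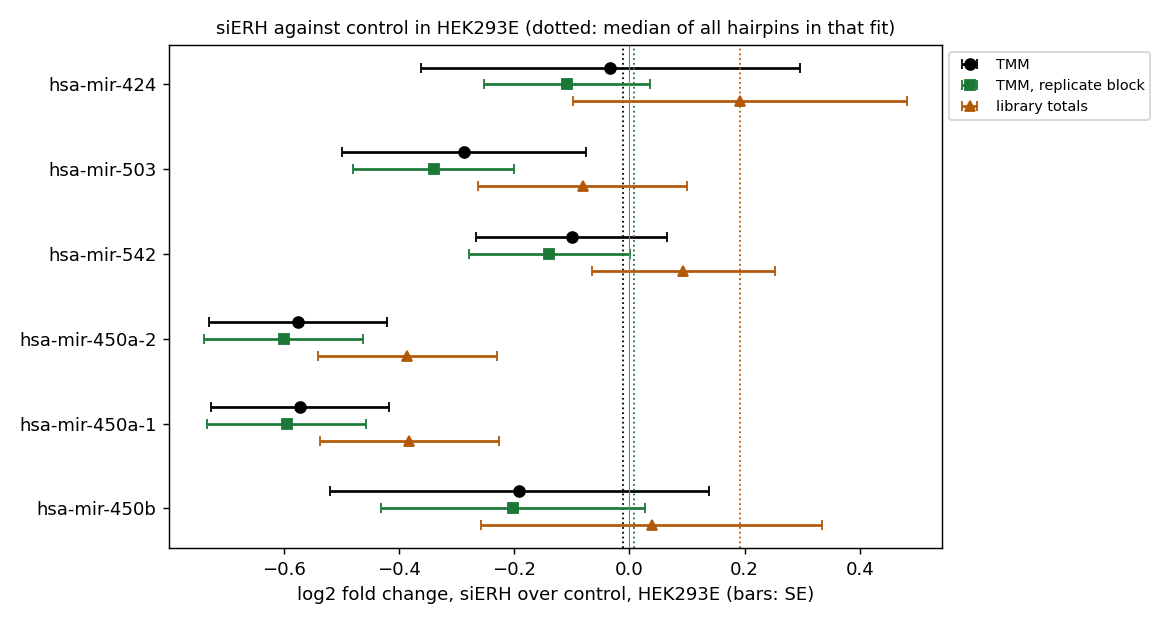
Log2 fold change of siERH over control in HEK293E (x axis; bars are SE) for each hairpin (y axis) with TMM scaling, TMM with the replicate block, and library totals; dotted lines are the median of all tested hairpins in each fit. The 450a copies lie at -0.57 and -0.58 with TMM and at -0.38 and -0.39 on library totals, and the other 4 hairpins lie nearer to 0.

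Ratios between members within a library do not depend on the scaling. The log2 ratio of hsa-mir-503 to hsa-mir-424 in HEK293E averaged -0.64 ± 0.35 over the controls (SD, n = 4) and -0.95 ± 0.23 over the siERH libraries (SD, n = 3). The difference of -0.31 did not pass the exact permutation test, two-sided and over 35 splits (p = 0.257, adjusted over 2 ratios p = 0.514, where the smallest p the design allows is 0.0286). The ratio of hsa-mir-542 to hsa-mir-424, between the leading hairpins of the 2 ends of the cluster, averaged -1.57 ± 0.56 over the controls (SD, n = 4) and -1.72 ± 0.25 with siERH (SD, n = 3). That difference of -0.15 had an exact permutation p = 0.657 (adjusted p = 0.657). Permuted within replicates, over 18 splits, the differences were -0.23 (exact permutation p = 0.111) and -0.03 (exact permutation p = 0.889). The smallest p that permutation within replicates allows here is 0.0556, which is above the threshold. That test could therefore not pass whatever the values, and no conclusion is drawn from it.

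A further pair of ratios was chosen after the values were seen and is described without a test. The log2 ratio of hsa-mir-450a-2 to its upstream neighbour hsa-mir-542 was 0.04 to 0.20 in the 4 HEK293E controls. In the 3 siERH libraries it was -0.39 to -0.30. The hsa-mir-450a-2 copy alone thus had more counts than hsa-mir-542 in every control and fewer in every siERH library. Whether 450a as a whole changed order depends on how reads matching both copies were counted, which is not known. The share of all pairs of hairpins that separate in this way was not counted. The log2 ratio of hsa-mir-450a-2 to its downstream relative hsa-mir-450b spread from 1.16 to 2.55 in the controls and lay between 1.40 and 1.44 in the siERH libraries, inside the control range.

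The background between control siRNAs was measured in the same way. Between siControl and siGFP, 0 of 730 hairpins (0%) passed edgeR's threshold, 24 had an unadjusted p under 0.05, and DESeq2 called 4. hsa-mir-450a-2 differed with a log2 fold change of 0.08 with an SE of 0.25 (adjusted p = 0.959 by edgeR), hsa-mir-424 by 0.22 with an SE of 0.52 (adjusted p = 0.959 by edgeR) and hsa-mir-450b by 0.57 with an SE of 0.51 (adjusted p = 0.959 by edgeR). With the replicate number as a block, 61 hairpins were lower (8.36%) and 72 higher (9.86%) in siControl. hsa-mir-450b was among the higher ones at 0.50 (adjusted p = 0.00717 by edgeR), and the other 5 members did not pass. In CPM, hsa-mir-450b was higher with siControl than with siGFP in both replicates. As the blocked fit called many hairpins between the control siRNAs, its call does not set hsa-mir-450b apart from them.

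Hairpins that share a seed or a chromosomal neighbourhood with the cluster were compared with its members. Of a list of 6 other hairpins with the AGCAGC seed start, which leaves out hsa-mir-6838, 1 was lower, 0 were higher and 5 did not pass. Over all tested hairpins in that fit, 16.2% were lower and 23.8% higher, so 1 of 6 is near the overall share. The median log2 fold change of the list was -0.01. The lower one was hsa-mir-15a, at -1.28 with an SE of 0.20 (adjusted p = 0.000768 by edgeR). When replicates were blocked, hsa-mir-15b passed too (adjusted p = 0.0103 by edgeR), which makes 2, where 20.6% of all tested hairpins were lower and 28.1% higher. The other miRNA cluster of Xq26, which begins with hsa-mir-106a, lies about 370 kb away on the same strand. Of its 6 hairpins, hsa-mir-20b (6 to 15 counts per library) and hsa-mir-363 (0 to 1 counts) had too few counts to test. Of the other 4, 0 were lower and 0 higher, against 16.2% and 23.8% of all tested hairpins without the block. Their median was -0.19. Among them, hsa-mir-92a-2 had 86840 to 167662 counts per library and hsa-mir-19b-2 had 57235 to 92054. Both are numbered as copies, and how reads matching several copies were counted is not given. Their counts may therefore not come from this cluster alone.

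In K562 the cluster was a smaller part of the library and more of it was hsa-mir-424. Between siGFP libraries, on the scale of all 9 libraries, hsa-mir-424 had 1084 CPM in K562 against 968 and 2287 CPM in HEK293E, between the HEK293E libraries, whereas on library totals it had 576 against 1220 and 2422 counts per 1e+06, below both. hsa-mir-503 had 359 CPM against 771 and 1355 CPM, and hsa-mir-542 had 74.9 CPM against 492 and 549 CPM. hsa-mir-450a-2 had 131 CPM against 560 and 602 CPM, and hsa-mir-450b had 30.2 CPM against 95.8 and 183 CPM. For these 4 and hsa-mir-450a-1 the K562 library was below both HEK293E libraries.

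The log2 ratio of K562 to the HEK293E mean was -0.59 for hsa-mir-424, -1.56 for hsa-mir-503, -2.78 for hsa-mir-542, -2.14 for hsa-mir-450a-2, -2.12 for hsa-mir-450a-1 and -2.17 for hsa-mir-450b. Of the 6 hairpins, 5 were at least 2-fold lower in K562, against 31.7% of the 741 hairpins compared, of which 23.6% were higher by that much. With 1 K562 library there is no test. This contrast depends on the scaling, since on library totals the median of all hairpins moved from -0.20 to -1.26. The members then ranged from -1.66 for hsa-mir-424 to -3.88 for hsa-mir-542, so that all 6 were at least 2-fold lower. On that scale 414 of the 741 hairpins compared were lower by that much and 89 higher. The counts of 5 and 6 members include both hsa-mir-450a-2 and hsa-mir-450a-1, which are not independent. In both scalings hsa-mir-424 differed least and hsa-mir-542 most.

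The lines were checked against blood-cell hairpins. The summed level of hsa-mir-144, hsa-mir-451a and both copies of hsa-mir-486 was 98542 to 133188 CPM in K562 and 1531 to 2642 CPM in HEK293E. That of hsa-mir-142, hsa-mir-223, hsa-mir-150 and hsa-mir-155 was 119876 to 148866 CPM in K562 and 90.6 to 371 CPM in HEK293E, although hsa-mir-155 had 0 and 0.912 CPM in K562 and hsa-mir-150 stayed under 10 CPM in both lines. The part of these hairpins in the lower levels of the cluster in K562 was not tested.

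**Figure D4:**
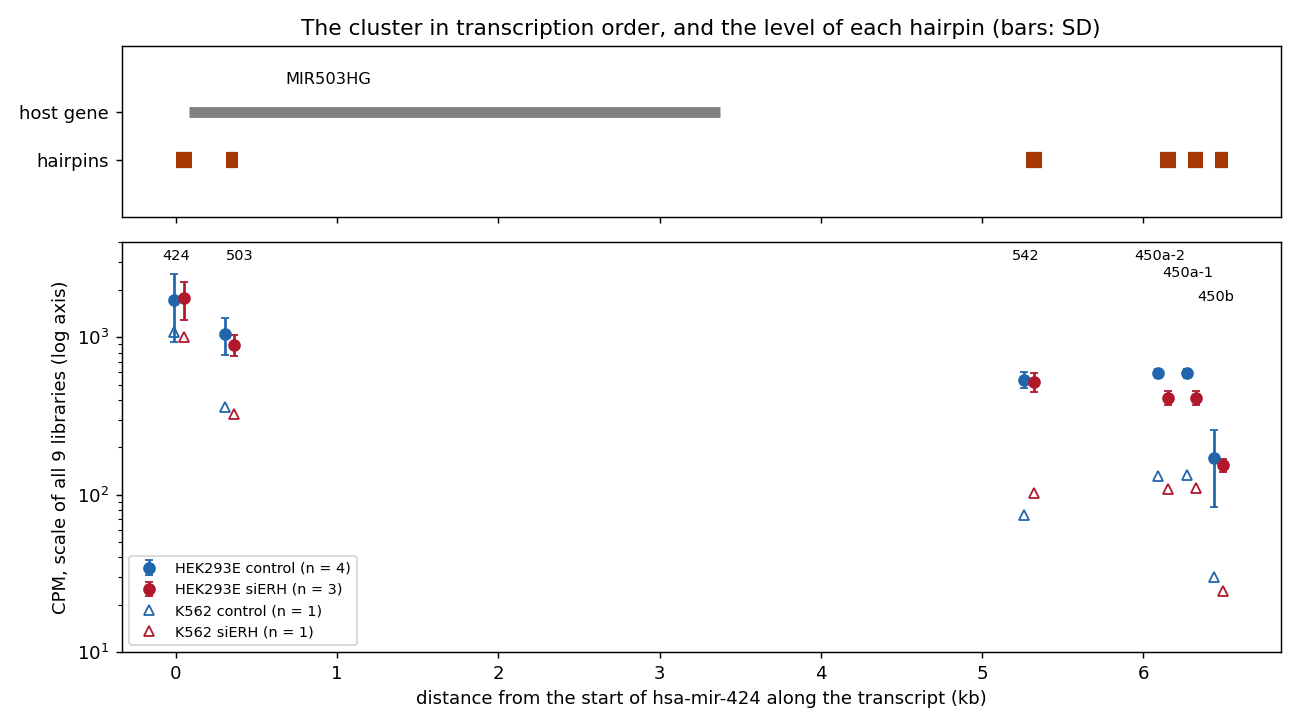
Top, position of the 6 hairpins and of MIR503HG along the direction of transcription (x axis, kb from the start of hsa-mir-424); bottom, level of each hairpin (y axis, CPM on the scale of all 9 libraries, log axis), with mean and SD for the HEK293E arms and single K562 libraries as triangles. On this scale the K562 levels of hsa-mir-424 lie within the HEK293E control range, although below it on library totals, and those of the second group, from 24.6 to 133 CPM, lie below it.

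With siERH-5 in K562, 0 of the 6 members moved by 2-fold, while 7.59% of 646 hairpins were lower and 10.7% higher by that much. hsa-mir-424 was counted 1506 times in the siGFP and 2210 times in the siERH-5 library, which scaled to 1084 and 1008 CPM, a log2 ratio of -0.11 (95% interval -0.20 to -0.01, counting error only). hsa-mir-450a-2 had 182 and 237 counts, or 131 and 108 CPM, a log2 ratio of -0.28 (-0.56 to 0.01). hsa-mir-542 had 104 and 226 counts, or 74.9 and 103 CPM, a log2 ratio of 0.46 (0.11 to 0.81). hsa-mir-503 gave -0.14 (-0.30 to 0.03) and hsa-mir-450b, from 42 and 54 counts, -0.29 (-0.89 to 0.33). On library totals hsa-mir-542 was at 0.76 and the other 5 between 0.02 and 0.21, where the median of all hairpins was 0.37, so only hsa-mir-542 kept a value above that median in both scalings.

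The log2 ratio of hsa-mir-450a-2 to hsa-mir-542 in K562 was 0.80 with siGFP and 0.07 with siERH-5, from 1 library each. It was lower with siERH in both lines, but the K562 siERH-5 value lay within the HEK293E control range of 0.04 to 0.20. The members also moved differently. With siERH, hsa-mir-542 was at 0.46 and hsa-mir-450a-2 at -0.28 in K562, against -0.10 and -0.58 in HEK293E. The shares of hsa-mir-424 in the cluster were 59.8% (95% Wilson interval 57.9% to 61.7%) and 60.0% (58.4% to 61.5%), which overlap. The siGFP share of hsa-mir-542 was 4.13% (3.42% to 4.98%), and its siERH-5 share was 6.13% (5.40% to 6.95%), which do not overlap. These intervals cover counting error only. In HEK293E the share of hsa-mir-542 was 14.3% (13.7% to 14.9%) in siGFP replicate 1 and 9.84% (9.38% to 10.3%) in siGFP replicate 2, which do not overlap either.

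Over all 9 libraries the summed level of the cluster ran from 1680 to 5962 CPM. The 3 hairpins whose levels followed this sum most closely, by the root mean square difference of centred log2 CPM among 784 hairpins, were hsa-mir-577 (0.21), hsa-let-7g (0.26) and hsa-mir-361 (0.28). Of the members themselves, hsa-mir-503 lay closest to the sum at 0.10 and hsa-mir-542 farthest at 0.56. The libraries share cell lines and replicates, so these values describe likeness over these 9 libraries and carry no test.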

How the data were processed

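The authors deposited raw counts per miRNA hairpin for 1485 hairpins in 9 libraries. The 2336 blank cells were read as 0. They also deposited RPM values, which equal the count plus 1 over the library total plus 1485, per 1e+06, to a relative difference of 1.1e-09, and were used only for this check. Per the labels' protocols, 18 to 30 nt RNA was gel-purified from 10 μg of total RNA with 30 spike-in RNAs, which were not used here. The submitters' processing notes name cutadapt, Bowtie2, bedtools and hg38.

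Tests used edgeR 4.0.16 under R 4.3.3 (quasi-likelihood test, TMM, a minimum mean of 10 counts per hairpin, Benjamini-Hochberg adjusted p-value under 0.05). DESeq2 1.42.0 was an alternative. The test was tested on simulated data. Fits took 3 siERH against 4 control libraries and 2 siControl against 2 siGFP libraries of HEK293E. K562 was compared without a test, by log2 ratios of CPM plus 1, with 2-fold as the threshold. Ratios of members used counts plus 0.5 and exact permutation tests with scipy 1.17.1. Intervals are Wilson for shares and exact binomial for K562 ratios. Folding used RNAfold 2.7.2.

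Replicate numbers match the labels' experimental groups, and same-numbered libraries deviated together (r = 0.69, 0.48 and 0.52 between siRNAs across hairpins), so fits were repeated with a replicate block. The members and the gene lists were chosen with earlier results of these data known. The named hairpins are the 6 members, the fixed lists (6 hairpins of the AGCAGC seed family, 6 of the Xq26 neighbour cluster, 4 erythroid and 4 other blood-cell markers) and the 3 hairpins most like the cluster's sum.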

Additional observations from a re-analysis of the deposited data

Results flagged for a closer look

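hsa-mir-542 lay below the mean of the same-replicate controls in all 3 HEK293E siERH libraries, at log2 ratios of -0.15, -0.21 and -0.06, and above siGFP in the K562 siERH-5 library, at 0.46. A test of the difference between lines was not run, as each K562 arm is a single library. On library totals the HEK293E values were -0.04, 0.05 and 0.24 and the K562 value 0.76, so 1 of the 3 HEK293E libraries still had the opposite sign.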

How the results depend on the processing

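Limits of depth were small in HEK293E, where the members had at least 392 counts, and larger in K562, where hsa-mir-450b had 42 and 54. The members' calls in the siERH comparison rested on the 450a copies, which are not independent: hsa-mir-450a-1 stayed past the threshold in 13 of 18 settings and hsa-mir-450a-2 in 12 of 17, with adjusted p-values from 6.69e-05 (DESeq2) to 0.0811, and hsa-mir-424, hsa-mir-503, hsa-mir-542 and hsa-mir-450b passed in 0 of 18. hsa-mir-15a passed in 18 of 18. With the replicate block, the log2 fold change of hsa-mir-450a-2 was -0.60 (adjusted p = 0.00328 by edgeR), and beyond hsa-mir-450b between control siRNAs the block changed no member's call. The cause of the differences below was not tested.

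For siERH against control in HEK293E, 125 hairpins were lower and 184 higher. On library totals there were 67 and 212, which took the lower part of all calls from 40.5% to 24.0%, and hsa-mir-424 moved to 0.19, hsa-mir-542 to 0.094 and hsa-mir-450b to 0.038. With a mean of at least 100 counts, where 419 hairpins were tested, 63 were lower and 82 higher, and hsa-mir-424 was at 0.054. With siGFP as the only control, hsa-mir-424 was at 0.058 and hsa-mir-450b at 0.10. Leaving out each library in turn gave 76 to 130 lower and 136 to 189 higher hairpins, with 77 lower without siERH-3 replicate 1 and 76 without siERH-3 replicate 2. It gave -0.24 to 0.20 for hsa-mir-424, -0.17 to 0.0070 for hsa-mir-542 and -0.39 to 0.17 for hsa-mir-450b.

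For siControl against siGFP, with 0 lower and 0 higher hairpins, 2 lower and 2 higher were called by DESeq2, and as many by edgeR with no filter, 61 and 72 with the replicate block, and 0 lower and 0 to 1 higher when each library was left out, where the lone library of an arm is assumed to vary like the others. On library totals hsa-mir-503 was at -0.11, hsa-mir-542 at -0.0088, hsa-mir-450a-2 at -0.051 and hsa-mir-450a-1 at -0.054. hsa-mir-503, at 0.0026 as designed, was at -0.013 with a mean of at least 100 counts and at -0.010 with 450a counted once. Leaving out each library gave -0.47 to 0.94 for hsa-mir-424, -0.33 to 0.44 for hsa-mir-503, -0.034 to 0.25 for hsa-mir-542 and -0.22 to 1.08 for hsa-mir-450b.

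The siERH difference in the ratio of hsa-mir-542 to hsa-mir-424 was 0.18 within replicate 2 and -0.32 to 0.044 when each library was left out. The share of hsa-mir-503 was 26.0% with 450a counted once. In K562, siERH-5 against siGFP gave 49 lower and 69 higher hairpins, 23 and 109 on library totals, and 23 and 19 with a mean of at least 100 counts. K562 against HEK293E gave 235 lower and 175 higher, 414 and 89 on library totals, and 121 and 90 with a mean of at least 100 counts.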
